A study of Arabidopsis thaliana with 8 samples.

Results

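The GASA genes of Arabidopsis thaliana encode small secreted peptides that were first found as transcripts induced by gibberellic acid. The 8 genes described here are GASA1 (AT1G75750), GASA2 (AT4G09610), GASA3 (AT4G09600), GASA4 (AT5G15230), GASA5 (AT3G02885), GASA6 (AT1G74670), GASA10 (AT5G59845) and GASA14 (AT5G14920). They were chosen by locus name, with their RPKM in all 4 groups known, from 27416 gene models in the files. RPKM is a read number scaled by the length of the model and the depth of the library. Because the choice used the values of every comparison, the values of these genes are given as a description and carry no p-value, and no threshold separated them from other genes. A further 7 family members named in RefSeq were not part of that choice. They too were listed with earlier results of these data known, and the 3 with enough reads are tested below.

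Gibberellins are growth hormones that promote germination, stem elongation and flowering. They act by binding the GID1 receptors, which leads to the removal of the DELLA repressors, and many GASA genes are switched on downstream of that step while others are repressed. A GASA peptide carries a signal peptide for secretion and a carboxy-terminal domain rich in cysteines, and members of the family have been linked to cell elongation, germination, flowering and redox state.

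Whole seedlings of the Col-0 ecotype were measured in 4 groups of 2 libraries each. These were cry1 cry2 double mutants in blue light, the tir1 afb1 afb2 afb3 quadruple mutant (tir1 afb123) in darkness, the wild type (WT) in blue light, and WT in darkness. CRY1 and CRY2 are the cryptochromes, which are blue light receptors that restrain hypocotyl growth, and TIR1 and AFB1 to AFB3 are receptors of the growth hormone auxin. All 4 groups shared a medium with 1% sucrose, 3 days in the cold, 12 h of white light and then 4 days without light or under blue light (15 µmol/m2/s), for a growth time of 4.5 days. The study asked which genes depend on cryptochrome signalling in blue light and which on auxin signalling through the TIR1/AFB receptors. RNA came from entire seedlings, so fewer cells of a type and less RNA per cell cannot be told apart. Nothing in the labels tells separate cultures from repeat preparations. The p-values set a difference between groups only against the spread between libraries of a group, pooled over the groups, and that spread may be technical.

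Each library rested on 19.31 M to 23.09 M reads. In the cry1 cry2 libraries CRY2 had 3 and 2 reads, and CRY1 averaged 33.3 RPKM, against 46.1 RPKM in WT in blue light. In the tir1 afb123 libraries AFB1 averaged 1.13 RPKM, against 35.9 RPKM in dark WT, and AFB2 averaged 0.791 RPKM, against 50.9 RPKM in dark WT. AFB3 averaged 17.3 RPKM in tir1 afb123, against 34.4 RPKM in dark WT, and TIR1 averaged 59.4 RPKM, against 77.0 RPKM in dark WT. For CRY1, AFB3 and TIR1 the amount of transcript alone therefore did not identify the mutant. Markers of organs moved with the groups. The summed level of 10 root markers was 421.3 and 389.4 RPKM in cry1 cry2 in blue light, 120.4 and 118.3 RPKM in tir1 afb123 in darkness, 169.1 and 167.8 RPKM in WT in blue light, and 424.6 and 437.9 RPKM in dark WT. The sum of 11 seed storage markers was 39.4 and 60.4 RPKM in cry1 cry2, 111.2 and 114.8 RPKM in tir1 afb123, 26.6 and 19.1 RPKM in WT in blue light, and 11.9 and 10.4 RPKM in dark WT. The sum of 14 shoot apex and leaf primordium markers stayed between 167.6 and 236.4 RPKM in all 8 libraries. The stem cell gene WUS was listed at 0 in cry1 cry2, tir1 afb123 and dark WT, SESA4 at 0 in WT in blue light, and SESA2 at 0 in dark WT.

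The 8 genes lie on 4 chromosomes. In the RefSeq annotation of TAIR10.1, GASA4 spans chr5:4944816-4946299 on the plus strand, GASA14 spans chr5:4826141-4828384 on the plus strand and GASA10 spans chr5:24111304-24112100 on the plus strand. GASA6 spans chr1:28053030-28054149 on the plus strand and GASA1 spans chr1:28441501-28442435 on the minus strand. GASA3 spans chr4:6072804-6073646 and GASA2 spans chr4:6074770-6075645, both on the minus strand and 1123 bases apart, and GASA5 spans chr3:637921-639242 on the minus strand. The 250 bases upstream of the annotated gene start are printed 5′ to 3′ for GASA4, GASA6, GASA10 and GASA14, which held a searched motif. GASA3 also held one, but it had only 7 reads in dark WT and its window is not printed. Capitals mark CATGTG, an E-box that bHLH factors such as the PIFs can bind, or its reverse complement, and in GASA10 TAACAA, a core of the gibberellin response element of cereal promoters.

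GASA4 (chr5:4944566-4944815, plus strand): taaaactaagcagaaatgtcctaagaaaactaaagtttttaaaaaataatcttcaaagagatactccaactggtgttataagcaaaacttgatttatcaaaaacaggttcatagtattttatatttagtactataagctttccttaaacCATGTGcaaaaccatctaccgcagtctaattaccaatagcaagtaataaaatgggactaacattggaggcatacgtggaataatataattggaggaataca
GASA6 (chr1:28052780-28053029, plus strand): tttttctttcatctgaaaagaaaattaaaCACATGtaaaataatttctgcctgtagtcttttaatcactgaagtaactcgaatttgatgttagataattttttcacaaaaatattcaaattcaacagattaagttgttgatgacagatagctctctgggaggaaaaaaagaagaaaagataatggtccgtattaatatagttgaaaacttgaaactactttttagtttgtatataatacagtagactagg
GASA10 (chr5:24111054-24111303, plus strand): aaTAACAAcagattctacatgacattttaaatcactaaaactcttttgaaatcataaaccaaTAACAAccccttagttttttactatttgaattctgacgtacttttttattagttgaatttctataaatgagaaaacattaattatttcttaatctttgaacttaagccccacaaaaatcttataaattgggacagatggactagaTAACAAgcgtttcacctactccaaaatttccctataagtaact
GASA14 (chr5:4825891-4826140, plus strand): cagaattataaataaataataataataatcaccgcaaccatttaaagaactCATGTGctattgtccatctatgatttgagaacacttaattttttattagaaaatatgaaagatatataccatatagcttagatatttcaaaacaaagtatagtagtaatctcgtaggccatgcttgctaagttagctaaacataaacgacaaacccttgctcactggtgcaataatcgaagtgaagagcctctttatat

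The match of CATGTG lay 101 bases upstream of the start in GASA4, 199 bases in GASA14, and on the opposite strand 221 bases upstream in GASA6. GASA3 held a match 188 bases upstream and another on the opposite strand 97 bases upstream. In all, 4 of the 8 genes held CATGTG, against 11.2% of 26713 promoter windows of the same length in the genome. GASA10 held TAACAA 248, 188 and 43 bases upstream and was the only member to hold it, against 30.8% of all windows. Neither the G-box CACGTG (6.58% of all windows) nor the auxin response elements TGTCTC (10.9%) and TGTCGG (4.16%) occurred in any of the 8 windows. Both strands were searched. CATGTG and CACGTG share no match, and a match is a run of letters and not evidence of binding.

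The encoded proteins share their carboxy-terminal end. Translated from the RefSeq coding sequences, 7 members had 89 to 106 residues, and GASA14 had 275 residues, of which 81 (29.5%) were prolines. All 15 family proteins examined held 12 cysteines in their last 60 residues. Over those 60 residues GASA2 and GASA3 were 88.3% identical, GASA4 and GASA6 75.0%, GASA5 and GASA6 73.3%, and GASA4 and GASA5 66.7%. GASA1 was 68.3% identical to GASA3 and 43.3% identical to GASA4. The closest pair in sequence among the abundant members, GASA4 and GASA6, differed in the group of lowest level, as the levels given next show. It was WT in blue light for GASA4 and tir1 afb123 for GASA6. Both were higher in cry1 cry2 than in WT in blue light, and lower in tir1 afb123 than in dark WT.

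**Figure D1:**
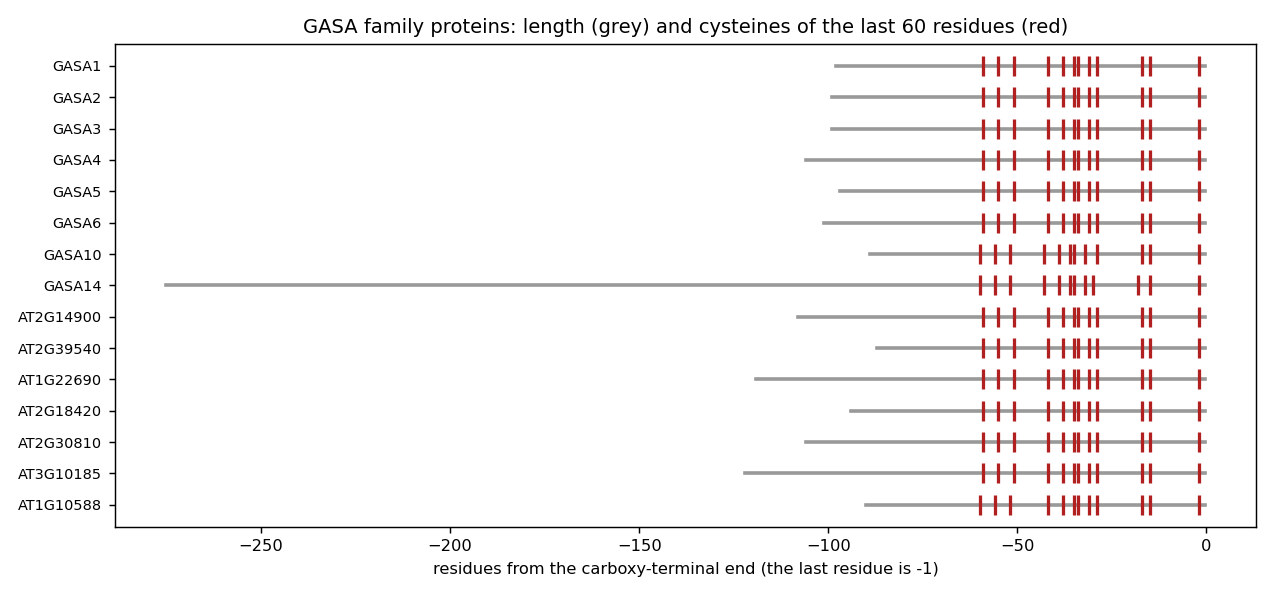
Length of each of 15 GASA family proteins (grey lines) and its cysteines within the last 60 residues (red ticks), with residues counted from the carboxy-terminal end on the horizontal axis. Every protein holds 12 such cysteines at nearly the same places, and GASA14 extends to 275 residues.

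Of the 8 genes, GASA1, GASA4, GASA6 and GASA14 were abundant, and the rest were at a few RPKM or less. GASA4 was the most abundant member in 6 of the 8 libraries and GASA1 in the other two, both of WT in blue light. The members' RPKM added up to 3565.1 and 3902.2 in cry1 cry2 in blue light, 2451.6 and 2402.4 in tir1 afb123 in darkness, 1476.9 and 1366.2 in WT in blue light, and 4583.4 and 4010.3 in dark WT. GASA4 supplied 71.6% and 75.2% of that sum in cry1 cry2, 64.2% and 62.7% in tir1 afb123, 21.9% and 26.0% in WT in blue light, and 70.4% and 69.3% in dark WT. In WT in blue light GASA1 supplied 55.4% and 45.4%. The makeup of the family's transcripts thus differed most in WT in blue light.

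**Figure D2:**
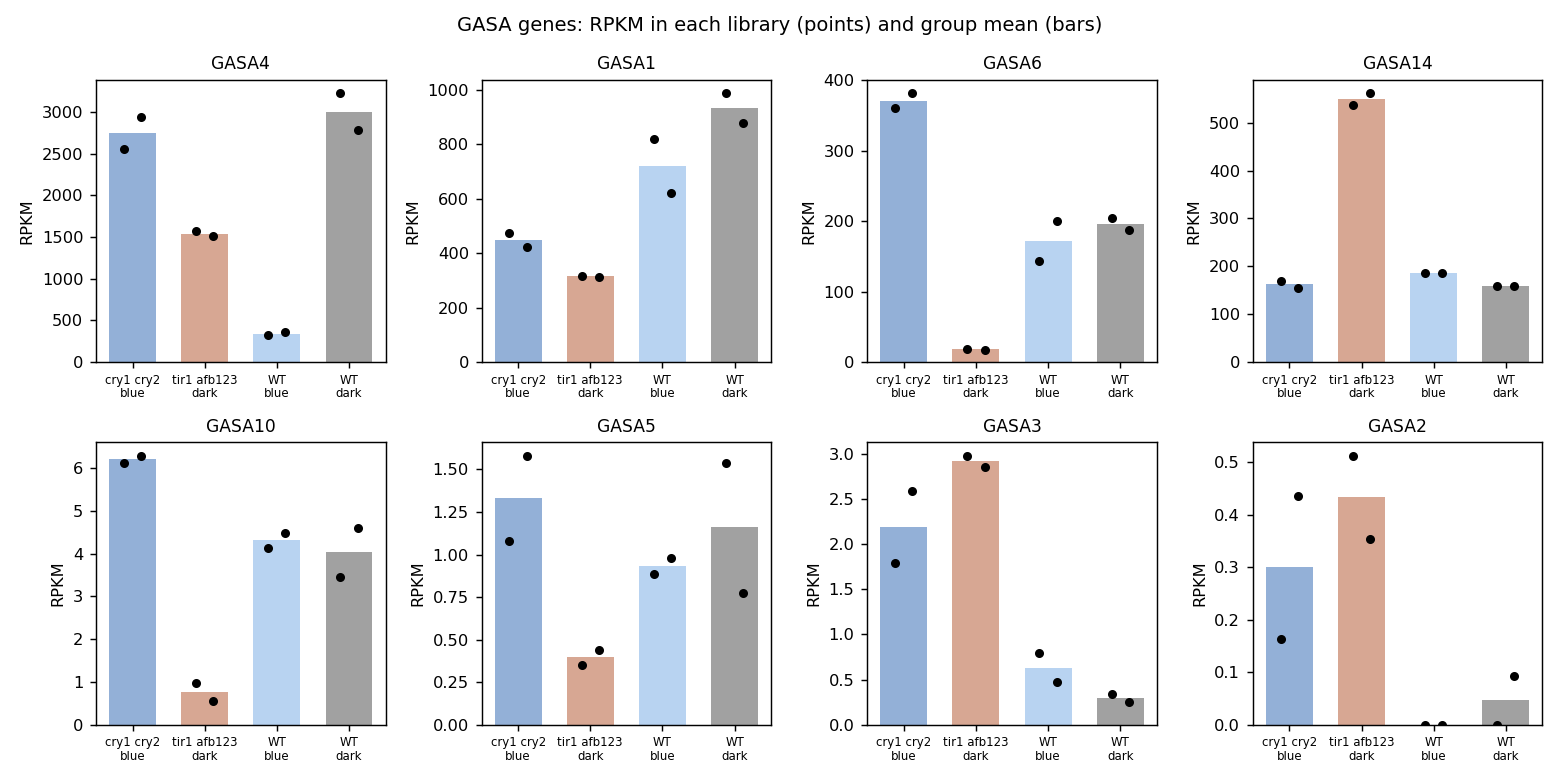
RPKM of the 8 GASA genes (vertical axes, a scale of its own per gene) in each library (points) with the mean of 2 libraries (bars), for cry1 cry2 in blue light, tir1 afb123 in darkness, WT in blue light and WT in darkness. GASA4 is low in WT in blue light, at 323.9 and 355.0 RPKM, GASA6 is low in tir1 afb123, at 18.8 and 16.6 RPKM, and GASA14 is high there, at 536.9 and 562.1 RPKM.

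GASA4, whose peptide has been linked to redox balance and to gibberellin responses, was among the most abundant transcripts of dark WT. It had 2552.3 and 2933.6 RPKM in cry1 cry2 in blue light, 1574.9 and 1506.4 RPKM in tir1 afb123 in darkness, 323.9 and 355.0 RPKM in WT in blue light, and 3225.6 and 2778.5 RPKM in dark WT. The level in WT in blue light stood apart below all other groups, tir1 afb123 came next, and cry1 cry2 and dark WT overlapped at the top. Ranked among all 27416 models, GASA4 was 10th and 9th in cry1 cry2, 29th and 31st in tir1 afb123, 304th and 269th in WT in blue light, and 7th and 8th in dark WT.

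GASA1, the founding member in this species, is known to respond to gibberellin and brassinosteroid. It had 473.0 and 421.1 RPKM in cry1 cry2 in blue light, 316.2 and 313.1 RPKM in tir1 afb123 in darkness, 818.4 and 620.3 RPKM in WT in blue light, and 988.4 and 878.9 RPKM in dark WT. No groups overlapped: dark WT was highest, then WT in blue light, then cry1 cry2, and tir1 afb123 was lowest. The 2 libraries of WT in blue light differed more from each other than those of any other group (mean 719.3 ± 140.1 RPKM, SD, n = 2).

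GASA6, a promoter of germination and of cell elongation in the embryonic axis, had 360.8 and 381.8 RPKM in cry1 cry2 in blue light, 18.8 and 16.6 RPKM in tir1 afb123 in darkness, 143.7 and 200.0 RPKM in WT in blue light, and 204.6 and 188.0 RPKM in dark WT. The cry1 cry2 libraries were the highest and the tir1 afb123 libraries the lowest, while WT in blue light and dark WT overlapped. GASA14, a proline-rich member linked to leaf expansion and stress tolerance, had 169.9 and 154.8 RPKM in cry1 cry2, 536.9 and 562.1 RPKM in tir1 afb123, 185.1 and 184.9 RPKM in WT in blue light, and 159.5 and 159.2 RPKM in dark WT. Its tir1 afb123 libraries stood far above the rest, WT in blue light came next, and cry1 cry2 overlapped with dark WT.

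The other four members had means of at most 6.21 RPKM in any group. GASA10 had 6.13 and 6.29 RPKM in cry1 cry2, 0.976 and 0.546 RPKM in tir1 afb123, 4.13 and 4.49 RPKM in WT in blue light, and 3.45 and 4.61 RPKM in dark WT. It was highest in cry1 cry2 and lowest in tir1 afb123, and the WT groups overlapped. GASA5, a regulator of flowering time and stem growth, had 1.08 and 1.58 RPKM in cry1 cry2, 0.353 and 0.439 RPKM in tir1 afb123, 0.884 and 0.978 RPKM in WT in blue light, and 1.54 and 0.772 RPKM in dark WT. Its tir1 afb123 libraries were the lowest, at 5 and 6 reads, and dark WT overlapped with both groups kept in blue light.

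GASA3 and GASA2, neighbouring genes known from siliques and dry seeds, had few reads in WT. GASA3 had 1.79 and 2.59 RPKM in cry1 cry2, 2.98 and 2.86 RPKM in tir1 afb123, 0.79 and 0.477 RPKM in WT in blue light, and 0.342 and 0.245 RPKM in dark WT. No groups of GASA3 overlapped, and both mutants were above both WT groups. GASA2 had 2 and 5 reads in cry1 cry2, 6 and 4 reads in tir1 afb123, 0 reads in both libraries of WT in blue light, and 0 and 1 reads in dark WT. Its mutant groups overlapped with each other and lay above both WT groups. The coding sequences of GASA2 and GASA3 were 86.0% identical, with a longest shared run of 35 bases, so the split of reads between them is uncertain.

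In WT, blue light was compared with darkness. GASA4 was the member with the large difference: its mean was 339.4 ± 22.0 RPKM in WT in blue light and 3002.1 ± 316.1 RPKM in dark WT (SD, n = 2 each), 8.84-fold lower, a log2 difference of -3.14 (SE 0.10). Log2 differences are between means of log2(RPKM + 1), which understates those of genes with few reads. GASA1 was also lower without overlap (-0.39, SE 0.11), at -0.59 without WT in blue light replicate 1 and -0.19 without replicate 2. GASA14 (0.21, SE 0.06) and GASA3 (0.33, SE 0.15, and 0.19 without WT in blue light replicate 1) were higher without overlap, and GASA2, GASA5, GASA6 and GASA10 overlapped. GASA3 had 11 and 6 reads in WT in blue light and 4 and 3 reads in dark WT. Thus 2 of 8 members were higher and 2 lower without overlap, where 40.0% of 20044 tested models were higher and 47.1% lower in that sense. A model was tested where 2 or more libraries reached 1 RPKM. The median log2 difference of the 7 members in the fit was -0.14, against -0.06 over all tested models. The sum of the root markers was lower in WT in blue light as well (range 167.8 to 169.1 RPKM) than in dark WT (424.6 to 437.9 RPKM), mostly through CASP1 (63.4 RPKM in WT in blue light and 183.2 RPKM in dark WT) and CASP5 (12.2 RPKM in WT in blue light and 139.2 RPKM in dark WT). Of 9 root markers tested, 5 fell, COBL9 and IRT1 rose, and RHD6 and SCR did not pass at a limma adjusted p under 0.05, where 34.0% of all tested models rose and 40.4% fell. The part of the root in the GASA4 difference was not tested.

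The second comparison set cry1 cry2 against WT, both in blue light. GASA4 averaged 2742.9 ± 269.6 RPKM in cry1 cry2 and 339.4 ± 22.0 RPKM in WT in blue light (SD, n = 2 each), 8.08-fold higher, a log2 difference of 3.01 (SE 0.10). GASA6 was 2.16-fold higher (1.13, SE 0.12), and GASA10 (0.44, SE 0.14) and GASA5 (0.27, SE 0.17) were higher without overlap at lower levels. GASA5 stood at 0.42 without cry1 cry2 replicate 1 and at 0.11 without replicate 2. GASA3 had 59 reads in the cry1 cry2 libraries together and 17 in WT in blue light, a depth-corrected ratio of 3.39 (exact 95% interval 1.95 to 6.2, counting error only). GASA2 had 7 reads against 0, which is at least 2.28-fold higher when the floor is 3 reads over the WT group. GASA1 was lower (1.61-fold, log2 difference -0.67, SE 0.11), and so was GASA14 (-0.19, SE 0.06, and -0.12 without cry1 cry2 replicate 2). In all, 6 members were higher and 2 lower without overlap, where 51.6% of tested models were higher and 33.5% lower. The 6 include GASA2, which did not pass the filter for testing, and GASA3, which passed it only through the mutant libraries. The median of the 7 members in the fit was 0.44, against 0.12 over all tested models.

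Both of these comparisons share the 2 libraries of WT in blue light, so a deviation of those libraries enters them with opposite signs, and their values are only set side by side. GASA4, at -3.14 for blue light in WT and 3.01 for cry1 cry2, had differences of nearly the same size. For GASA1 the values were -0.39 and -0.67, so its level in cry1 cry2 lay further from dark WT than that of WT in blue light did. GASA6 stood at -0.21 and 1.13. Between cry1 cry2 in blue light and dark WT, which differ in both genotype and light, GASA4, GASA5 and GASA14 overlapped, GASA1 was lower (447.0 against 933.7 RPKM on average), and GASA2, GASA3, GASA6 and GASA10 were higher. The seed storage sum was likewise higher in cry1 cry2 (39.4 to 60.4 RPKM) than in WT in blue light (19.1 to 26.6 RPKM), and its part in the levels of GASA2 and GASA3 was not tested.

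The third comparison set tir1 afb123 against WT, both in darkness. GASA6 was the member with the largest difference, 17.7 ± 1.57 RPKM in tir1 afb123 and 196.3 ± 11.7 RPKM in dark WT (SD, n = 2 each), 11.1-fold lower, a log2 difference of -3.40 (SE 0.12). GASA1 was 2.97-fold lower (-1.56, SE 0.11), GASA4 1.95-fold lower (-0.96, SE 0.10) and GASA10 5.29-fold lower (-1.51, SE 0.14). GASA5 was lower at 11 reads against 29 (-0.60, SE 0.17, and -0.35 without dark WT replicate 1). GASA14 went the other way and averaged 549.5 ± 17.8 RPKM in tir1 afb123 and 159.4 ± 0.177 RPKM in dark WT, 3.45-fold higher (1.78, SE 0.06).

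The seed-associated members were also higher in tir1 afb123. GASA3 had 77 reads in tir1 afb123 and 7 in dark WT, a depth-corrected ratio of 10.0 (exact 95% interval 4.63 to 25.7). GASA2 had 10 reads against 1, a ratio of 9.09 (1.29 to 394.6). GASA3 passed the filter on low values only through the mutant libraries, and GASA2 did not pass it. No member overlapped in this comparison: 3 were higher and 5 lower, where 31.8% of tested models were higher and 57.0% lower. The median of the 7 members in the fit was -0.96, against -0.24 over all tested models. Scaling every library to a common upper quartile moved that overall median to -0.10 and changed the direction of no member.

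**Figure D3:**
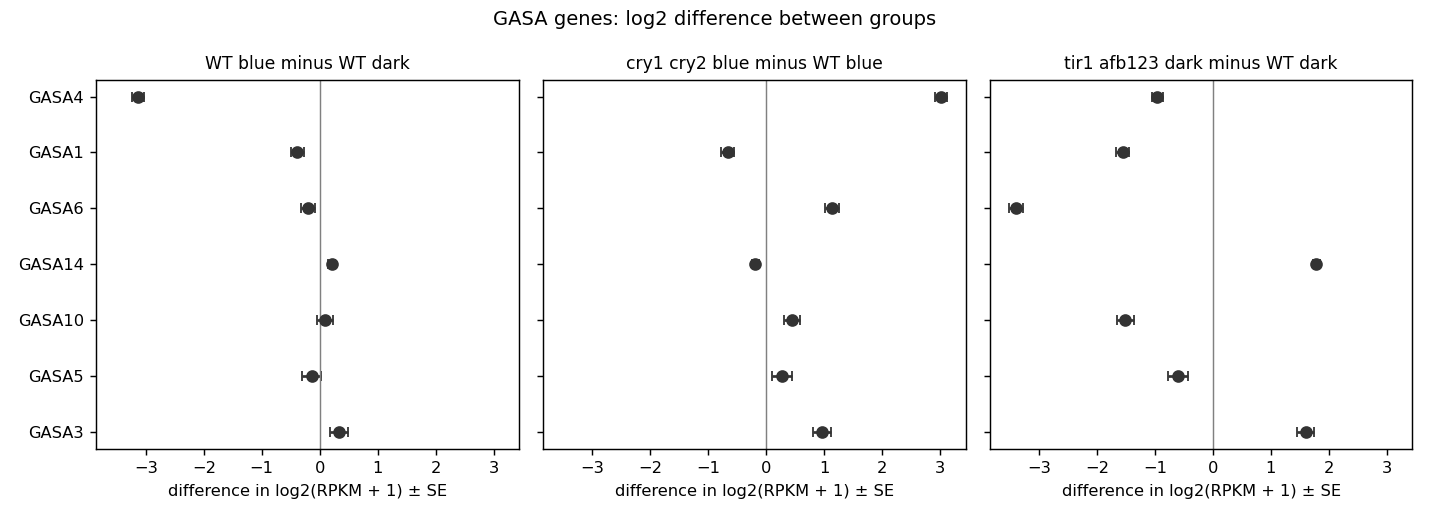
Difference in log2(RPKM + 1) with its standard error for the 7 GASA genes in the fit, for WT in blue light minus dark WT, cry1 cry2 minus WT in blue light, and tir1 afb123 minus WT in darkness. GASA4 stands at -3.14 and 3.01 in the panels that share WT in blue light, and in tir1 afb123 GASA6 stands at -3.40 and GASA14 at 1.78.

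Seed and root markers differed in the same libraries. Of 11 seed storage markers, 10 rose and 1 fell in tir1 afb123 against dark WT by limma's adjusted p under 0.05, where 27.5% of all tested models rose and 51.4% fell, and the 12S globulin gene CRA1 averaged 35.2 RPKM in tir1 afb123 and 0.259 RPKM in dark WT. Of these markers SESA3, SESA4 and CRU2 reached 1 RPKM in tir1 afb123 only. SESA1 averaged 9.16 ± 0.126 RPKM in tir1 afb123, 1.71 ± 1.11 RPKM in cry1 cry2 and less than 1 RPKM in both WT groups. Outside tir1 afb123 it reached 1 RPKM in too few libraries for the filter. SESA1, SESA3, SESA4 and CRU2 thus entered the test through tir1 afb123 and add no support to the 10 that rose. In cry1 cry2 against WT in blue light, 7 of the 11 rose, none fell and 4 did not pass, where 41.6% of all tested models rose. Of 9 root markers tested (of 10 listed), 7 fell, none rose and 2 did not pass in tir1 afb123, to be read against the 51.4% of all models that fell. The root hair genes COBL9 (0.395 RPKM in tir1 afb123 and 2.97 RPKM in dark WT) and RHD6 (0.362 RPKM in tir1 afb123 and 3.37 RPKM in dark WT) were among those that fell. The part of these organs in the levels of GASA3, GASA2, GASA6, GASA1 and GASA4 was not tested. The sum of the shoot markers was 218.8 to 221.5 RPKM in tir1 afb123 and 235.2 to 236.4 RPKM in dark WT. Of 11 shoot markers tested, 4 rose, 6 fell and 1 did not pass. Of the 4, CUC3 entered the test only through tir1 afb123 and adds no support. The leaf primordium genes FIL (50.9 RPKM in tir1 afb123 and 19.7 RPKM in dark WT) and YAB3 (46.3 RPKM in tir1 afb123 and 30.4 RPKM in dark WT) rose, as did AS2 and CUC3 (which reached 1 RPKM in tir1 afb123 only), while AS1, the most abundant of the list, fell (83.0 RPKM in tir1 afb123 and 126.3 RPKM in dark WT). The part of the shoot in the higher level of GASA14 was not tested.

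Of the 7 other family members, 3 had enough reads to be tested. AT1G22690 had 12.0 and 13.0 RPKM in cry1 cry2 in blue light, 3.24 and 2.6 RPKM in tir1 afb123, 98.1 and 88.0 RPKM in WT in blue light, and 0.928 and 0.532 RPKM in dark WT. It rose in blue light in WT (log2 difference 5.77, SE 0.12, limma adjusted p = 7.27e-12), was lower in cry1 cry2 than in WT in blue light (-2.80, SE 0.12, adjusted p = 2.75e-09), and rose in tir1 afb123 (1.18, SE 0.12, adjusted p = 2.67e-06). Its levels ran opposite to those of GASA4 in the blue light comparisons.

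AT3G10185 had 0 reads in cry1 cry2, 1 and 0 reads in tir1 afb123, 46 and 32 reads in WT in blue light, and 0 reads in dark WT. It was therefore detected almost exclusively in WT in blue light, at least 23.5-fold higher than in dark WT and at least 26.6-fold higher than in cry1 cry2, with the floor at 3 reads over a group. It reached 1 RPKM in that group only and entered the test through it, so its calls had to come out this way and are not counted as support. In tir1 afb123 it did not pass (limma adjusted p = 0.529). AT2G14900 had 112.4 and 104.7 RPKM in cry1 cry2, 148.1 and 140.7 RPKM in tir1 afb123, 48.1 and 46.1 RPKM in WT in blue light, and 140.8 and 136.4 RPKM in dark WT. Like GASA4 it was lowest in WT in blue light. It fell in blue light in WT (-1.54, SE 0.06, adjusted p = 4.47e-10), rose in cry1 cry2 against WT in blue light (1.19, SE 0.06, adjusted p = 6.02e-09), and did not pass in tir1 afb123 (0.06, SE 0.06, adjusted p = 0.353), where upper-quartile scaling gave 0.23 (adjusted p = 0.00201).

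In counts that include AT3G10185, 2 of these 3 rose and 1 fell in blue light, where 34.0% of tested models rose and 40.4% fell. In cry1 cry2, 1 rose and 2 fell, where 41.6% of tested models rose and 26.3% fell, and in tir1 afb123, 1 rose and 2 did not pass, where 27.5% rose and 51.4% fell. AT2G39540, AT2G30810 and AT1G10588 had 0 reads in all 8 libraries, and AT2G18420 had at most 2 reads in any library.

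**Figure D4:**
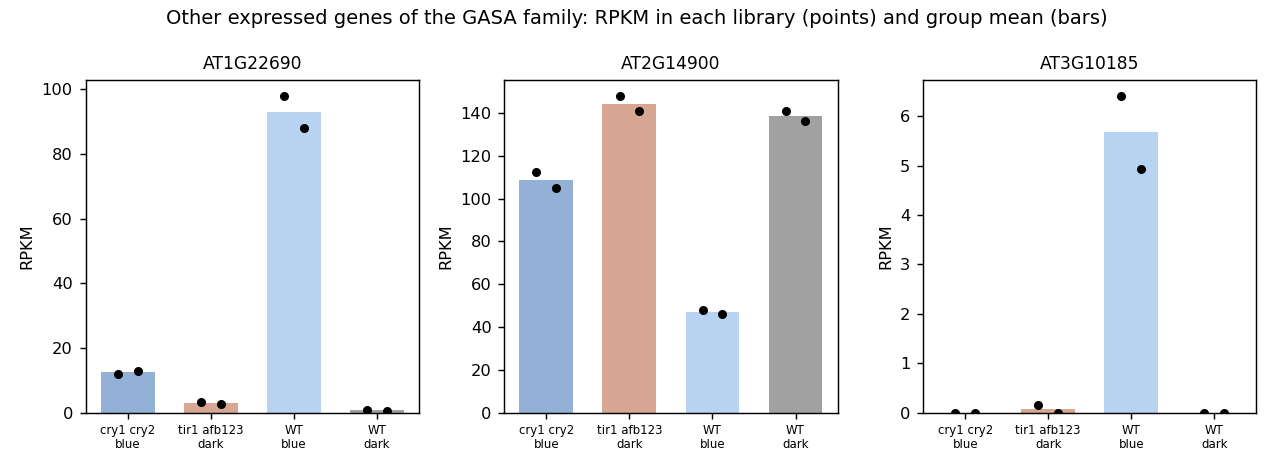
RPKM of the 3 other GASA family members that could be tested, in each library (points) with the mean of 2 libraries (bars), for cry1 cry2 in blue light, tir1 afb123 in darkness, WT in blue light and WT in darkness. AT1G22690 and AT3G10185 are highest in WT in blue light, at 98.1 and 88.0 RPKM and at 6.42 and 4.94 RPKM, where AT2G14900 is lowest, at 48.1 and 46.1 RPKM.

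Gibberellin pathway genes were read beside the family, since gibberellin is the hormone the GASA genes are named for. Of 32 listed genes, 25 were tested. In blue light in WT, 4 rose, 16 fell and 5 did not pass, with a median log2 difference of -0.45, against -0.06 over all tested models. In cry1 cry2 against WT in blue light, 18 rose, 2 fell and 5 did not pass, with a median of 0.42 against 0.12. In tir1 afb123 against dark WT, 5 rose, 13 fell and 7 did not pass, with a median of -0.30 against -0.24. Of all tested models, 34.0% rose and 40.4% fell in blue light, 41.6% and 26.3% in cry1 cry2, and 27.5% and 51.4% in tir1 afb123. The share of pathway genes that fell in tir1 afb123 was near that of all tested models.

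Among 8 tested genes of gibberellin synthesis, 2 rose and 4 fell in blue light, 5 rose and 1 fell in cry1 cry2, and none rose and 4 fell in tir1 afb123. The shares that fell, 4 of 8 in blue light and in tir1 afb123, are to be read against 40.4% and 51.4% of all tested models. Of all tested models, 41.6% rose and 26.3% fell in cry1 cry2, and 34.0% rose in blue light and 27.5% in tir1 afb123. KAO1, among the 4 that fell in tir1 afb123, lost its call under 2 alternatives. GA20OX1, an oxidase of the late steps of synthesis, averaged 0.337 ± 0.0517 RPKM in WT in blue light and 7.78 ± 0.146 RPKM in dark WT (log2 difference -2.72, SE 0.10, limma adjusted p = 4.56e-10). It averaged 5.46 ± 0.214 RPKM in cry1 cry2 against that level in WT in blue light (2.27, SE 0.10, adjusted p = 3.15e-09) and 2.08 ± 0.157 RPKM in tir1 afb123 against that in dark WT (-1.51, SE 0.10, adjusted p = 5.83e-08). By group means GA20OX1 was highest in dark WT and lowest in WT in blue light, as GASA4 was. GA3OX1 was the more abundant of the tested genes for the step that makes the active hormone, except in WT in blue light. It changed in the same directions as GA20OX1. GA3OX1 averaged 8.24 RPKM in cry1 cry2, 7.62 RPKM in tir1 afb123, 2.11 RPKM in WT in blue light and 18.8 RPKM in dark WT. GA3OX2, of the same step, averaged 0.353 ± 0.103 RPKM in cry1 cry2, 2.77 ± 0.615 RPKM in WT in blue light and 0.184 ± 0.192 RPKM in dark WT. GA3OX2 reached the minimum of 1 RPKM in WT in blue light only, so its inclusion in the test rests on the group where it is high.

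The 6 tested genes of gibberellin inactivation, the GA2-oxidases, included 5 that rose and 1 that fell in tir1 afb123. Of all tested models, 27.5% rose and 51.4% fell there. GA2OX7, which acts on precursors, had 72 reads in tir1 afb123 and 0 in dark WT, at least 21.8-fold higher with the floor at 3 reads over the group. It reached 1 RPKM in tir1 afb123 only and entered the test through that group, so it adds no support to the 5 that rose. GA2OX8, another of the 5, lost its call under 4 of the alternatives. GA2OX4 fell in tir1 afb123 (-0.79, SE 0.15, limma adjusted p = 0.000564). In blue light 1 of the 6 rose and 3 fell, where 34.0% of all tested models rose and 40.4% fell. In cry1 cry2 4 rose and none fell, where 41.6% of all tested models rose and 26.3% fell. Of those 4, GA2OX4 lost its call under 4 alternatives and GA2OX8 under 3, and GA2OX1 was called lower (adjusted p = 0.0104 by limma) without WT in blue light replicate 1. GA2OX8 also lost its call for blue light in WT under 2 alternatives. GA2OX6 averaged 4.37 ± 0.0753 RPKM in WT in blue light, against 19.9 ± 0.465 RPKM in dark WT (-1.96, SE 0.06, adjusted p = 1.74e-10), and 13.3 ± 0.0152 RPKM in cry1 cry2 (1.41 against WT in blue light, SE 0.06, adjusted p = 4e-09). GA2OX1 rose in blue light (0.74, SE 0.18, adjusted p = 0.00294).

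All 11 genes of perception and DELLA repression were tested. In blue light 1 rose and 9 fell, where 34.0% of all tested models rose and 40.4% fell. In cry1 cry2 9 rose and 1 fell, where 41.6% of all tested models rose and 26.3% fell. In tir1 afb123 none rose and 8 fell, where 27.5% of all tested models rose and 51.4% fell. The DELLA gene RGL1 fell in blue light (-1.13, SE 0.08, limma adjusted p = 1.89e-07), and the DELLA gene RGL3 rose in cry1 cry2 (1.42, SE 0.11, adjusted p = 3.63e-07). RGL1 was also called lower in tir1 afb123 (-0.30, limma adjusted p = 0.00621), but not under upper-quartile scaling (-0.13, adjusted p = 0.184). It stood at -0.21 without tir1 afb123 replicate 1. The DELLA gene RGA was called higher in cry1 cry2 (0.22, limma adjusted p = 0.00268), but not under upper-quartile scaling (0.13, adjusted p = 0.0563). The receptor gene GID1C fell in tir1 afb123, to 9.12 ± 0.0101 RPKM against 23.8 ± 1.1 RPKM in dark WT (-1.29, SE 0.06, adjusted p = 5.45e-09). SNE, which encodes an F-box protein related to the DELLA-removing SLY1, rose in blue light (0.98, SE 0.15, adjusted p = 0.000112). It fell in cry1 cry2 (-0.50, SE 0.15, adjusted p = 0.0122), a call that was lost without cry1 cry2 replicate 1 (adjusted p = 0.0728) or without WT in blue light replicate 2 (adjusted p = 0.119).

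**Figure D5:**
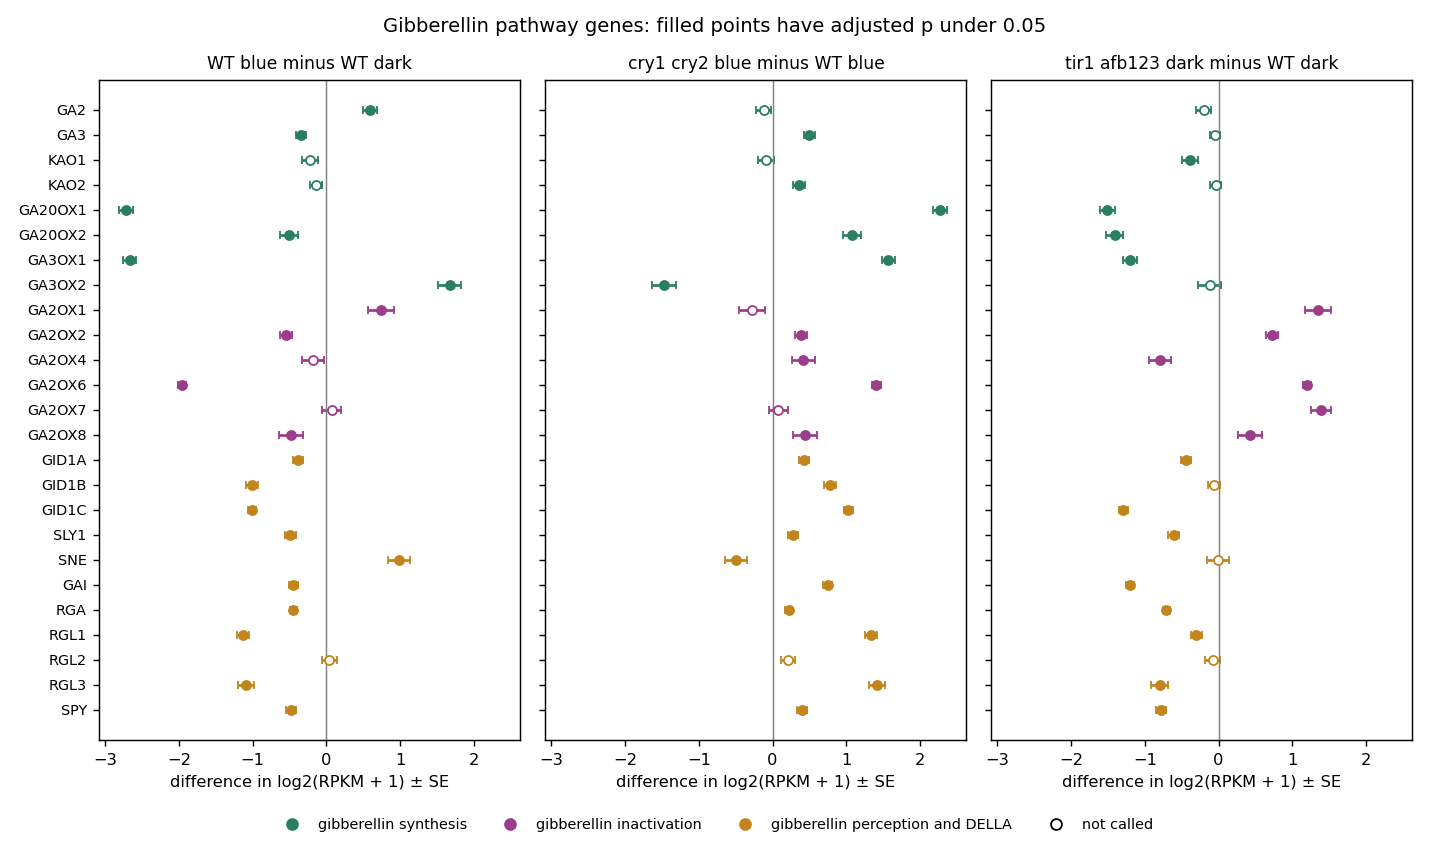
Difference in log2(RPKM + 1) with its standard error for 25 gibberellin pathway genes in the same 3 comparisons, with filled points for adjusted p under 0.05 and open points for genes that did not pass. Most perception and DELLA genes lie left of 0 in blue light (9 of 11 fell, against 40.4% of all tested models). Most lie right of 0 in cry1 cry2 (9 of 11 rose, against 41.6%). In tir1 afb123 5 of 6 inactivation genes rose, against 27.5% of all tested models. Of these, GA2OX7 entered the test only through tir1 afb123, and GA2OX8 lost its call under 4 alternatives.

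Genes with the most similar pattern were looked up for the 4 abundant members, as the root mean square difference between log2(RPKM + 1) values centred on each gene's mean, over the 4 group means and among 14483 models with at least 5 RPKM on average. GASA4 was followed most closely by AT1G62770 (0.064), with 120.1 RPKM in cry1 cry2, 59.4 RPKM in tir1 afb123, 13.1 RPKM in WT in blue light and 120.0 RPKM in dark WT, then by AT1G05835 (0.161) and COL5 (0.185). GASA6 was followed by IAA29 (0.145), an Aux/IAA repressor of auxin response with 37.0 RPKM in cry1 cry2, 0.789 RPKM in tir1 afb123, 18.9 RPKM in WT in blue light and 23.3 RPKM in dark WT, then by MLP328 (0.259) and AT4G11320 (0.263). GASA14 was followed by ALDH3F1 (0.046), an aldehyde dehydrogenase gene, by the chloroplast-encoded ATCG00680 (0.049) and by RBOHD (0.070), an NADPH oxidase gene. GASA1 was followed by EXT12 (0.126), OFP15 (0.188) and the metallothionein gene MT1A (0.201). The likeness rests on 4 group means from 8 libraries and is a description.

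The genes next to the members on the chromosomes changed in both directions. Besides GASA2 and GASA3, which neighbour each other, there were 14 such neighbours, of which 13 were tested, and 6 rose and 7 fell in blue light, 5 rose and 4 fell in cry1 cry2, and 5 rose and 5 fell in tir1 afb123. Over all tested models 34.0% rose and 40.4% fell in blue light, 41.6% and 26.3% in cry1 cry2, and 27.5% and 51.4% in tir1 afb123. Next to GASA4, AT5G15240 rose in blue light (log2 difference 1.19, SE 0.13, limma adjusted p = 6.66e-06) and fell in cry1 cry2 (-1.02, SE 0.13, adjusted p = 3.11e-05), opposite to GASA4, and AT5G15220 differed little (-0.21 in blue light, SE 0.07, adjusted p = 0.0147). Next to GASA6, and 4740 bases from it on the opposite strand, the mini zinc finger gene MIF1 fell in tir1 afb123 (-2.53, SE 0.11, limma adjusted p = 1.82e-09), where GASA6 stood at -3.40. MIF1 stood at -1.07 in blue light and 0.50 in cry1 cry2, where GASA6 stood at -0.21 and 1.13. Next to GASA14 and 488 bases from it on the same strand, AT5G14910 rose in tir1 afb123 (1.67, SE 0.05, adjusted p = 1.33e-10), where GASA14 stood at 1.78. The same neighbour rose in blue light by 1.42 and fell by 1.79 in cry1 cry2, where GASA14 stood at 0.21 and -0.19.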

How the data were processed

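Polyadenylated RNA of 8 seedling libraries was sequenced, per the labels' protocols. Per the file headers the authors deposited 1 RPKM value for each gene model, and Bowtie2 2.2.2 with TAIR10 is named in the submitters' processing notes. The annotation release, and how reads fitting several genes were assigned, are not given in the sources used here. Whole reads recovered from the RPKM steps of 24717 models above 0 gave depths, read counts and exact 95% intervals, which cover counting error only. The libraries of a group differed beyond counting (chi-square per degree of freedom 2.69 to 4.59).

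Differences were fitted with limma 3.58.1 in R 4.3.3 on log2(RPKM + 1), with eBayes and a trend, to 20044 models in 8 libraries and 4 groups (4 residual and 6.96 prior degrees of freedom), with Benjamini-Hochberg adjustment over all of them and a threshold of 0.05. The fit was tested on simulated data. Family members, symbols, promoters and coding sequences came from RefSeq (TAIR10.1), where 26719 models had a locus and 16 family loci were named, of which 15 are described. Sequences were read and aligned with Biopython 1.88 in Python 3.11.15.

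The members, gene lists and markers were chosen with earlier results of these data known. Named genes were the members, the other family genes, the largest called rise and fall of each gibberellin list per comparison, the nearest genes on each side, and the 3 closest patterns for members of at least 5 RPKM on average. The markers named with values and GA3OX1 were picked from the lists after their values were seen. Alternatives were other pseudocounts, filters and scaling, a fit of the compared groups only, the replicate number as a block, and leaving out each library.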

Additional observations from a re-analysis of the deposited data

How the results depend on the processing

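Of 84 member differences recomputed without 1 library, 3 changed sign, all for blue light in WT and all of members whose groups overlapped: GASA10 to -0.08 and GASA5 to 0.12 without dark WT replicate 1, and GASA6 to 0.03 without WT in blue light replicate 1. Of 21 member differences, a pseudocount of 0.1 moved 6 and one of 0.5 moved 3 by more than the spread between replicates, upper-quartile scaling moved 8, and none of these changed sign. A filter of 5 RPKM tests fewer genes, and left 0 gibberellin pathway genes higher in blue light (4 with the filter of 1 RPKM), 2 higher in tir1 afb123 (5) and 0 lower in cry1 cry2 (2), and among the other family members 1 higher in blue light (2) and 1 lower in cry1 cry2 (2). Without 1 library, 1 to 3 gibberellin pathway genes were lower in cry1 cry2. The lowest count came without WT in blue light replicate 2 and without cry1 cry2 replicate 1. Upper-quartile scaling gave 2 other family members higher in tir1 afb123 (1 as deposited), by adding AT2G14900. Testing without a filter gave 1 lower there (0 with the filter), by adding AT2G18420, with 3 reads in dark WT and 0 in tir1 afb123. Same-numbered libraries did not deviate together (correlations from -0.115 to 0.137), so the labels' numbers are not taken as pairs. With the replicate block, 6794 models rose and 8079 fell in blue light, 8275 and 5216 in cry1 cry2, and 5498 and 10258 in tir1 afb123, and the counts of listed genes stayed within 1.5 times. Members at a few RPKM are limited by counting: GASA2 had at most 6 reads in a library.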
